A study of Mus musculus with 12 samples.

Results

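Zinc finger genes were the hosts of 173 of the 13474 circular RNAs (circRNAs) listed for 4 mouse cell lines. A circRNA is a closed RNA ring made when a splice donor joins an upstream acceptor, and it is counted by reads that span this back-splice junction. Members were the circRNAs with a single host gene whose symbol begins with Zfp and a digit, Zbtb, Zkscan or Zscan, with Zfp609 left out. They came from 69 host genes, of which 67 had reads. The table of the mammary lines listed 118 member circRNAs of 53 hosts among 9492 circRNAs. The table of the melanocyte lines listed 168 members among 12910 circRNAs, and 138 members of 59 hosts had reads there.

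The mammary pair was 4T1, a mouse breast cancer line, and Eph4-ev, a breast epithelial line. The melanocyte pair was B16F10, a melanoma line, and Melan-a, a melanocyte line. Each line gave 3 libraries of total RNA treated with RNase R, an exonuclease that removes linear RNA, and no agent, age or time was labelled. Each group is 1 line, so a difference between the tumour and the non-tumour state and a difference between any 2 lines of that lineage cannot be told apart. No label says that the libraries came from separate cultures, so the p-values measure the spread between these libraries. In such bulk samples, fewer cells with a circRNA and less of it per cell cannot be told apart either.

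C2H2 zinc finger proteins are the most numerous family of DNA-binding proteins in mammals. Each finger is a short loop that holds a zinc ion between paired cysteines and paired histidines, and arrays of fingers read DNA. Many Zfp and Zkscan proteins carry a KRAB domain, which recruits the corepressor Trim28, and Zbtb proteins carry a BTB domain, which pairs the proteins and recruits Ncor and Hdac corepressors. In the typical KRAB gene the whole finger array is coded by one long last exon. Back-splicing cannot use a last exon, since it lacks a splice donor, nor a first exon, since it lacks an acceptor.

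The junctions that carried the results below are printed 5′ to 3′ in the sense of the gene, to show which exon ends were joined. Lower case is the end of the last exon in the ring, and capitals are the start of the first exon. Exons are numbered in the named GENCODE transcript on mm10. The first pair of rings, from Zfp827, shares its capitals because both begin at exon 6.
Zfp827 exons 6 to 8, chr8:79118175-79136663, plus strand, Zfp827-202: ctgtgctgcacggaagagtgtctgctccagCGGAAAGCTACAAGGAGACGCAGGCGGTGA
Zfp827 exons 6 to 7, chr8:79118175-79120540, plus strand, Zfp827-202: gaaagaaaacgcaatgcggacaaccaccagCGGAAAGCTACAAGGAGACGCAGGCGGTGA
Zfp827 exons 2 to 5, chr8:79060250-79092066, plus strand, Zfp827-202: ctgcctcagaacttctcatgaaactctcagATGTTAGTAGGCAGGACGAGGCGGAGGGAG
Zfp148 exons 2 to 4, chr16:33421321-33434974, plus strand, Zfp148-202: gcactcaatgtccctGATAGAAGAGAAGAA
Zfp292 exons 2 to 4, chr4:34839332-34839986, minus strand, Zfp292-201: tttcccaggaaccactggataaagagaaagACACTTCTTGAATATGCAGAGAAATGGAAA
Zfp704 exons 3 to 4, chr3:9470892-9474602, minus strand, Zfp704-201: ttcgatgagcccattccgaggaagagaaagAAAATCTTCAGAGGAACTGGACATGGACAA
Zbtb20 exons 10 to 13, chr16:43569681-43577748, plus strand, Zbtb20-204: ccgggtcatctgattATGCAGCCACTCTCT
Zfp536 exon 4, chr7:37567814-37569991, minus strand, Zfp536-201: caccatcttcctcagGGATGGAAGAAGCGA
Zbtb7a exon 2, chr10:81143962-81145217, plus strand, Zbtb7a-201: agttcgattcaccagGTGTCGCGGAAGATG
Each run is 30 bases on either side where the ring is wholly coding and 15 where it reaches into a 5′ UTR.

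Members had every finger in the last exon less often than the other genes of the same symbol pattern, by count and with no test made. GENCODE has 464 protein-coding genes of the same symbol pattern, and 69 of them (14.9%) were members. The share was 14.2% for Zfp (56 of 393 genes), 24.4% for Zbtb (10 of 41) and 27.3% for Zkscan (3 of 11), and none of the 19 Zscan genes was a member. Fingers were located as matches to the C2H2 spacing in the longest coding sequence of each gene. Of the 68 members with at least 1 finger, 21 (30.9%) had every finger in the last exon and 34 (50%) had none there. Of the 376 other genes with a finger, 323 (85.9%) had every finger in the last exon and 33 (8.78%) had none there. The members also had more exons, with a median of 8 against 4, and the part of exon number in this difference was not tested. Zfp839, which had no reads, was the 1 member without a match.

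**Figure D1:**
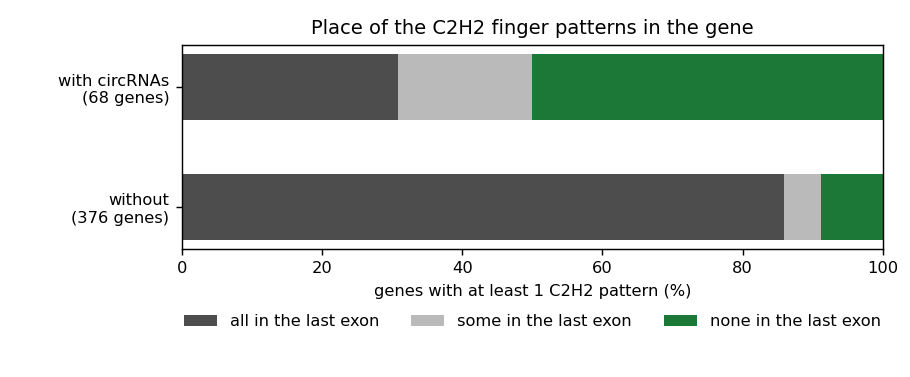
Share of genes (%, x axis) with all, some or none of their C2H2 finger patterns in the last exon, for the 68 genes that are members and the 376 genes of the same symbol pattern that are not (labelled without). The label without means no single-host circRNA listed: Zfp91 and Zbtb11 have reads in rows with several hosts. The bar labelled with circRNAs holds members, among them Zfp706, which had no reads. All fingers lay in the last exon in 30.9% of members and in 85.9% of the others.

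None of the member circRNAs matched to exons reached the first or the last exon of its transcript. Both ends matched exon boundaries for 114 of the 118 mammary members and 135 of the 138 melanocyte members. In the genes with every finger in the last exon, 0 of 18 matched circRNAs in the mammary table and 0 of 19 in the melanocyte table held a whole finger. This follows from the placement, since no matched ring reached a last exon, and is no separate result. Where no finger lay in the last exon, 46 of 81 and 59 of 95 held a whole finger. Together, 57 of 114 mammary members (50%) and 75 of 135 melanocyte members (55.6%) held at least 1 whole finger.

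Zinc finger rings had a longer median length than other rings and held the start codon in a larger share. The median exonic length was 524.5 bases in the mammary table, against 456 for all other single-host circRNAs, and 629 against 492 in the melanocyte table. The median was 3 exons in every set. Single-exon rings made up 9.65% of mammary members against 4.50% of the others, and 10.4% against 4.15% in the melanocyte table. The annotated start codon lay inside 29.8% against 15.5% in the mammary table and 32.6% against 15.01% in the melanocyte table. Rings that were coding throughout made up 65.8% of mammary members against 82.9% of the others, and 64.4% against 83.4% of the melanocyte ones. Another 27 mammary hosts of a list of C2H2 genes with other names gave 88 matched rings, with a median of 509 bases, 13.6% of 1 exon and 67.05% coding throughout, and 33.0% of these held a start codon. In the melanocyte table that list gave 87 matched rings, with a median of 660 bases, 12.6% of 1 exon, 71.3% coding throughout and 27.6% with a start codon. No test was made on these shares, since rings of 1 host share exons.

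From the annotated start codon, the reading frame crossed the junction in 34 of 34 mammary and 43 of 44 melanocyte members that held that codon. A ring with the start codon but without the gene's own stop codon has to cross, so this count is no separate result. Crossing was as common in the other single-host circRNAs with a start codon, at 1361 of 1367 and 1233 of 1240. The frame met no stop in any number of rounds in 3 and 5 members, and in 169 and 152 of the others. Among the members without a stop was the Zfp536 ring of exon 4, which is 2178 bases long and holds 7 of the 10 fingers of the gene. Another was the Zfp131 ring of exons 2 to 7, of 1098 bases with 2 fingers; Zfp131 also carries a BTB domain. In the Zfp148 ring the frame ran for 435 bases, stop included, in 567. In the ring of Zfp516 exon 2, of 1926 bases, it ran for 1872 bases and the ring held 8 of 10 fingers. These frames come from reference transcripts, and translation was not measured.

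Members took a small share of all junction reads in each of the 4 lines. Library totals ran from 15572 to 56649 junction reads, and every 4T1 library had fewer than every Eph4-ev library. The share of member reads was 2.56%, 2.01% and 2.28% in 4T1, with a mean of 2.28% ± 0.278 (SD, n = 3). It was 1.88%, 1.74% and 1.81% in Eph4-ev, with a mean of 1.81% ± 0.0686 (SD, n = 3). Every 4T1 library lay above every Eph4-ev library, but without Zfp827, the most abundant host, the ranges of 1.43% to 1.93% and 1.39% to 1.48% overlapped. The mean was 2.13% ± 0.138 in B16F10 and 2.47% ± 0.177 in Melan-a (mean ± SD of 3 libraries), and the B16F10 range of 1.98% to 2.24% lay below the Melan-a range of 2.28% to 2.63%. Zfp827 had 26, 21 and 21 of the 435, 380 and 330 member reads in B16F10. In Melan-a it had 58, 86 and 157 of 572, 882 and 632. Without Zfp827 the ranges of this pair overlapped too. Wilson intervals at 95% ran from 1.81% to 2.22% in the second 4T1 library and from 1.76% to 2.00% in the first Eph4-ev library, so these overlapped. They cover counting error only, since PCR reads are not independent molecules. No test was made on this sum over chosen genes.

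**Figure D2:**
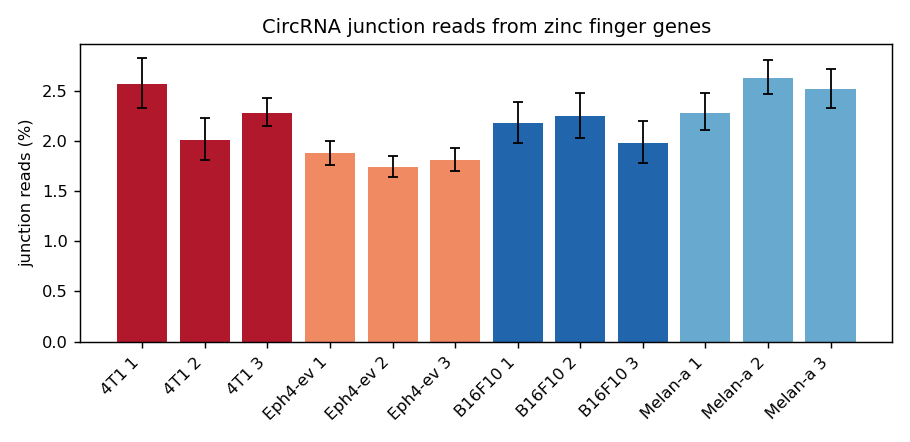
Share of all circRNA junction reads (%, y axis) from zinc finger hosts in each of the 12 libraries (x axis), with Wilson 95% intervals as bars. The 4T1 libraries lie between 2.01% and 2.56% and the Eph4-ev libraries between 1.74% and 1.88%.

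Few genes made up most of these reads. Zfp827, Zfp516, Zfp148 and Zfp292 held 72.0% of member reads in the mammary libraries, as a mean over libraries. Zfp516, Zfp148, Zfp827 and Zfp532 held 66.8% in the melanocyte libraries. At the other end, 57 of 118 mammary members and 87 of 138 melanocyte members had under 10 reads in their 6 libraries together. Zbtb hosts gave 0.0679% of junction reads in 4T1, 0.0526% in Eph4-ev, 0.106% in B16F10 and 0.139% in Melan-a. The number of member circRNAs with reads was 50.7 ± 5.13 in 4T1 and 73.0 ± 3.46 in Eph4-ev (mean ± SD of 3 libraries). At the depth of the shallowest library these became 47.3 and 52.0.

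The 10 circRNAs with reads in all 12 libraries came from 9 hosts. They were Zfp516 exon 2 and exon 3, Zfp148 exons 2 to 4, Zfp292 exons 2 to 4, Zfp827 exons 6 to 8, Zbtb48 exons 9 to 10, Zfp426 exons 3 to 5, Zfp236 exons 2 to 7, Zfp512 exons 4 to 7 and Zfp532 exons 5 to 8. The lowest of their 12 counts ran from 1 read for Zfp532 and for Zfp516 exon 3 to 56 reads for Zfp516 exon 2. Of the 165 members with reads, 91 had reads in both tables, 27 in the mammary table alone and 47 in the melanocyte table alone.

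Counts summed per host were compared between the lines of each pair with edgeR's quasi-likelihood test over all hosts. A call is a Benjamini-Hochberg adjusted p under 0.05, and folds are the tumour line over the non-tumour line. Levels are given in junction reads scaled to the library's junction total (RPM), and the 2 tables were scaled separately. Of 53 mammary hosts, 22 passed the filter on low counts, and some passed only through the line in which they were high. Among them 2 were called higher and 2 lower in 4T1 (18.2%), against 17.5% of all 1515 hosts tested, of which 6.86% were higher and 10.6% lower. The median log2 fold was 0.45 for the members and -0.09 for all hosts. In the melanocyte pair 17 of 59 hosts were tested, 1 was higher and 1 lower in B16F10 (11.8%), against 7.13% of 898 hosts, 2.78% higher and 4.34% lower. Their median log2 fold was -0.08, against -0.0015 for all hosts. Unadjusted p was under 0.05 for 10 mammary and 5 melanocyte hosts. With 4 and 2 calls these shares lie near the background and give no result about zinc finger hosts as a group.

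The most abundant hosts are described first. Zfp516 codes for a transcription factor known for activating Ucp1 in brown fat. Its circRNAs were at 5523, 3834 and 5737 RPM in 4T1, and at 2369, 2136 and 2610.3 RPM in Eph4-ev. The lowest 4T1 library exceeded the highest Eph4-ev library. The log2 fold was 0.96 with a standard error of 0.21 (edgeR adjusted p = 0.00698), and without the second Eph4-ev library adjusted p was 0.0964. In B16F10 it was at 7946, 8322 and 6528 RPM and in Melan-a at 8376, 7033 and 7155 RPM, so these groups overlapped (log2 fold change -0.08 ± 0.21 SE; edgeR, adjusted p = 0.886). The single-exon ring of exon 2 gave 89.2% of the host's reads in 4T1, 91.7% in Eph4-ev, 93.5% in B16F10 and 93.3% in Melan-a. That ring alone was also higher in 4T1 (log2 fold change 0.85 ± 0.25 SE; edgeR, adjusted p = 0.0382), but its adjusted p rose to as much as 0.193 when 1 library was left out and was under 0.05 in only 1 of these 6 fits.

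Zfp827, a protein known for bringing the NuRD complex to telomeres, gave the most different rings, with 11 in the mammary and 13 in the melanocyte table. It was at 6293, 5751 and 4683 RPM in 4T1, and at 3969, 3548 and 4014 RPM in Eph4-ev. The groups did not overlap, but the host missed the threshold (log2 fold change 0.38 ± 0.18 SE; edgeR, adjusted p = 0.159). In the melanocyte pair it was at 1299, 1239 and 1258 RPM in B16F10, and at 2313, 2563 and 6241 RPM in Melan-a. The third Melan-a library stood far above the other Melan-a libraries. The host was lower in B16F10 (log2 fold change -1.63 ± 0.38 SE; edgeR, adjusted p = 0.0201). That call was lost without that library, without the first B16F10 library or without the second one, with adjusted p of at most 0.0800.

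The reads of Zfp827 were split differently over its rings in the 2 lineages. The ring of exons 6 to 8, 402 bases with no whole finger, gave 69.4%, 72.5% and 72.7% of the host's reads in 4T1, against 61.2%, 69.7% and 61.9% in Eph4-ev. It gave 34.6%, 33.3% and 33.3% in B16F10 and 39.7%, 30.2% and 28.7% in Melan-a. Every mammary library lay above every melanocyte library, although the B16F10 values rest on 21 to 26 reads and the split was not tested. The Wilson interval of the first B16F10 library ran from 19.4% to 53.8%, and that of the first Eph4-ev library from 54.3% to 67.7%. The ring of exons 2 to 5, 1929 bases with 3 whole fingers, gave 15.5%, 26.7% and 23.6% in Melan-a, and at most 14.3% in any library of the other lines. Its counts were 1, 3 and 0 reads in B16F10, against 9, 23 and 37 reads in Melan-a. That ring was lower in B16F10 (log2 fold change -3.44 ± 0.81 SE; edgeR, adjusted p = 0.0136), with adjusted p of up to 0.0955 when 1 library was left out: the call was lost without the first or the third B16F10 library or the third Melan-a library. It passed the filter on low counts only through Melan-a. The ring of exons 6 to 8 was lower as well (log2 fold change -1.47 ± 0.44 SE; edgeR, adjusted p = 0.0465). It was not called without the third Melan-a library, without the first Melan-a library or without any 1 of the B16F10 libraries.

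**Figure D3:**
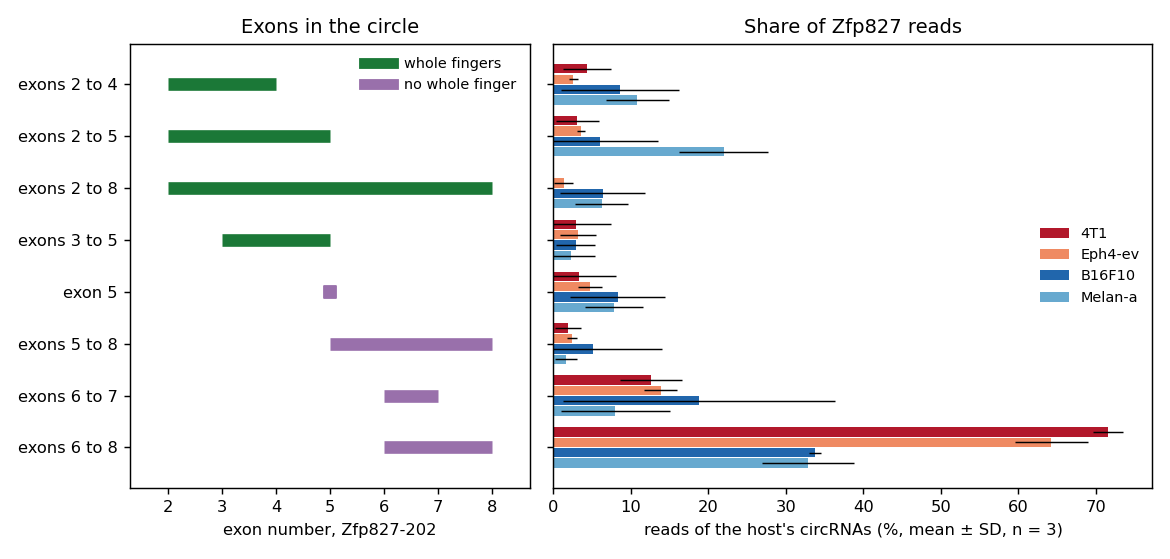
Left, exons held by each Zfp827 ring with 20 or more reads (x axis, exon number in Zfp827-202); right, its share of the host's junction reads (%, mean ± SD of 3 libraries per line). Exons 6 to 8 gave a mean of 71.6% in 4T1 and 64.2% in Eph4-ev but 33.8% in B16F10 and 32.9% in Melan-a.

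Zfp148, also called ZBP-89, binds GC-rich promoters. Its host total was at 3211, 2819 and 3272 RPM in 4T1, and at 4778, 3954 and 3906 RPM in Eph4-ev. It was at 2049, 2479 and 2216 RPM in B16F10, and at 3390.2, 6019.6 and 2783 RPM in Melan-a. In both pairs every library of the tumour line was below every library of its partner. Neither difference passed the threshold: the log2 fold was -0.57 (± 0.20 SE; edgeR, adjusted p = 0.0585) in the mammary pair and -0.96 (± 0.32 SE; edgeR, adjusted p = 0.0802) in the other. The ring of exons 2 to 4 gave 68.6% ± 12.2 of the host's reads in 4T1 and 79.0% ± 2.19 in Eph4-ev (mean ± SD of 3 libraries). Read alone, it was lower in 4T1 (log2 fold change -0.87 ± 0.23 SE; edgeR, adjusted p = 0.0273). Adjusted p was up to 0.0949 without the second 4T1, the first Eph4-ev or the second Eph4-ev library, and 0.0769 when scaled by total reads alone.

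Zfp292 is a large nuclear protein linked to brain development, and its 14 fingers are all coded by the last exon. Its ring of exons 2 to 4 gave all of its reads in 4T1 and Melan-a, 99.8% in Eph4-ev and 96.3% in B16F10. The level was 2512 ± 276 RPM in 4T1 and 2808 ± 278 RPM in Eph4-ev (mean ± SD of 3 libraries). It was 974 ± 92.9 RPM in B16F10 and 1005 ± 388 RPM in Melan-a (mean ± SD of 3 libraries). The groups overlapped within both pairs, with edgeR adjusted p of 0.356 and 0.869. The lowest mammary library, at 2196 RPM, lay above the highest melanocyte library, at 1236 RPM.

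Zfp532, a member of the Z4 chromatin complex, was at 193, 226 and 336 RPM in 4T1, and at 1046, 671 and 738 RPM in Eph4-ev. The host was lower in 4T1 (log2 fold change -1.73 ± 0.49 SE; edgeR, adjusted p = 0.0258). The call was lost without the second 4T1 library or without any 1 of the Eph4-ev libraries, with adjusted p of up to 0.130. In the melanocyte pair it was at 1748 ± 467 RPM in B16F10 and 2589 ± 943 RPM in Melan-a (mean ± SD of 3 libraries), with overlap (edgeR adjusted p = 0.254). Its ring of exons 5 to 8, with 6 fingers in 804 bases, had 1, 2 and 2 reads in 4T1, against 22, 16 and 19 in Eph4-ev. It was called lower (log2 fold change -2.53 ± 0.76 SE; edgeR, adjusted p = 0.0417), but in none of the 6 fits without 1 library, where adjusted p ran from 0.0584 to 0.186. This ring passed the filter on low counts only through Eph4-ev.

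Of the remaining abundant hosts, none was called. Zbtb48, also called TZAP, is a telomere-binding BTB protein, and its ring of exons 9 to 10 holds 2 of its 10 fingers. It was at 313 ± 85.6 RPM in 4T1 and 152 ± 48.6 RPM in Eph4-ev (mean ± SD of 3 libraries), and at 686 ± 84.5 RPM in B16F10 and 342 ± 66.4 RPM in Melan-a (mean ± SD of 3 libraries). Its groups did not overlap in either pair, with log2 folds of 0.85 (± 0.74 SE; edgeR, adjusted p = 0.492) and 0.92 (± 0.46 SE; edgeR, adjusted p = 0.277). Zfp236, with 30 fingers, was at 454 ± 165, 564 ± 102, 736 ± 244 and 401 ± 71.2 RPM in 4T1, Eph4-ev, B16F10 and Melan-a (mean ± SD of 3 libraries). Zfp426, a KRAB protein, was at 670.4 ± 347 RPM in 4T1 and 248 ± 137 RPM in Eph4-ev (mean ± SD of 3 libraries; edgeR adjusted p = 0.131). Zfp131 ranged from 56.4 to 771 RPM among the 4T1 libraries (edgeR adjusted p = 0.154).

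**Figure D4:**
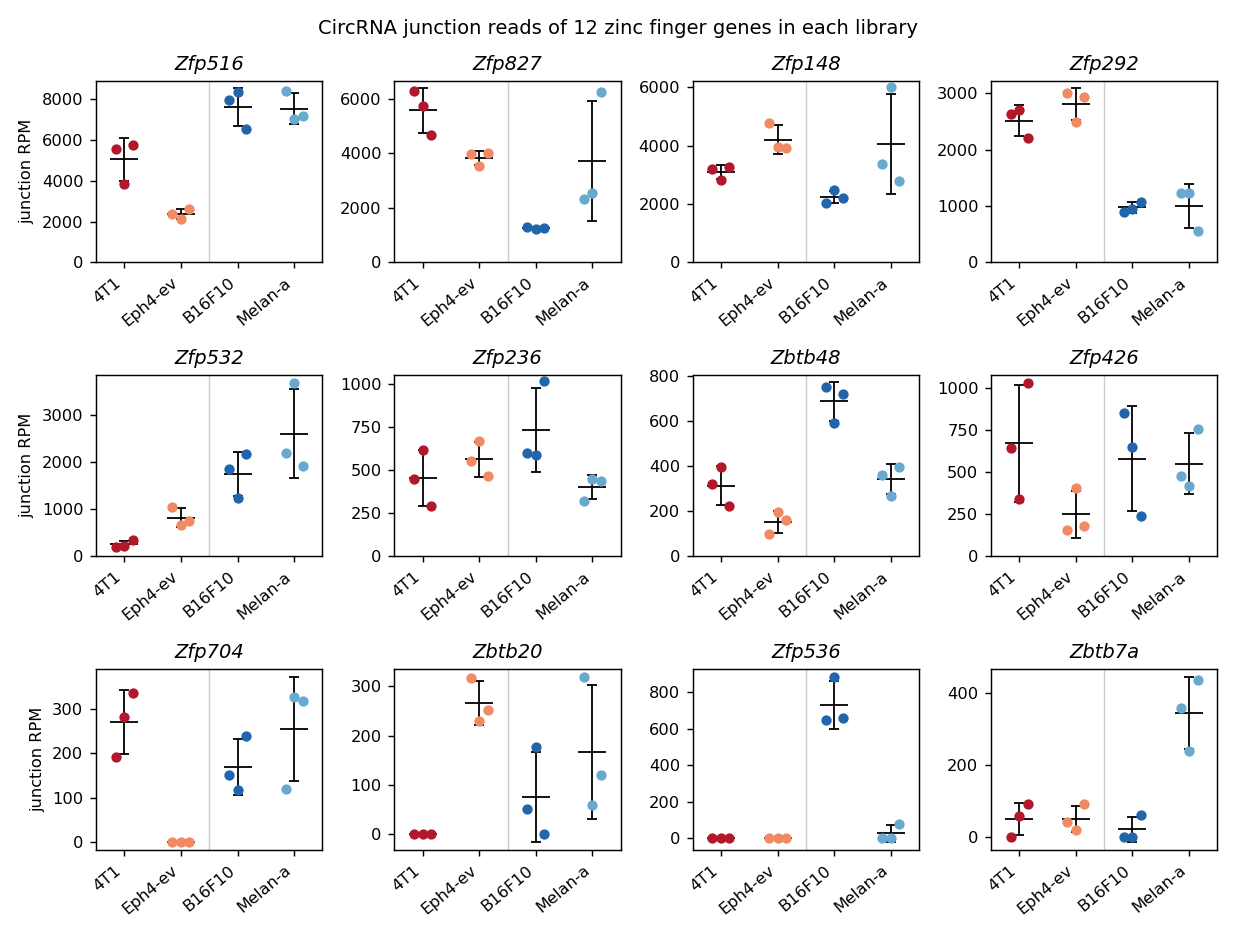
CircRNA junction reads in RPM (y axis, linear, with its own scale in each panel) of 12 zinc finger hosts in the 3 libraries of each line (points), with the mean and SD. The 2 tables were scaled separately, and Zfp536, which is not listed in the mammary table, is drawn at 0 there. Zfp536 lies at 649.6 to 885 RPM in B16F10, and at 0 to 79.5 RPM in Melan-a.

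Among the scarcer hosts the calls rested on circRNAs that had no or few reads in 1 line. Zfp704, also named Gig1, had 3, 5 and 15 reads in 4T1 and none in any Eph4-ev library. Against a floor of 3 counts over the line, this was at least 16.02-fold higher (edgeR adjusted p = 0.0104). In this pair the host and its main ring passed the filter on low counts only through 4T1. Their p-values are therefore no independent support. The host was not tested without the third 4T1 library and missed the threshold without the second Eph4-ev library (adjusted p = 0.0740). Its reads came mainly from the ring of exons 3 to 4, with 2, 5 and 15 reads in 4T1 (edgeR adjusted p = 0.0179). That call was lost without the second 4T1 library or any 1 of the Eph4-ev libraries. In the melanocyte pair the same host had 3, 2 and 4 reads in B16F10, against 3, 11 and 8 in Melan-a, which overlapped.

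Zbtb20, a BTB protein known for silencing Afp in liver, had 16, 13 and 14 reads in Eph4-ev and none in 4T1. It was at least 6.86-fold lower in 4T1 (edgeR adjusted p = 0.0126), and adjusted p was up to 0.0917 without the first or the second Eph4-ev library. It passed the filter on low counts only through Eph4-ev, so its p-values are no independent support. All its reads came from the ring of exons 10 to 13, which holds the start codon and no finger (edgeR adjusted p = 0.0181, lost without any 1 of the Eph4-ev libraries). In B16F10 it had 1, 3 and 0 reads and in Melan-a 8, 2 and 3 reads, too few to be tested. The ring of Zfp407 exons 2 to 3, with 16 of the gene's 22 fingers in 4835 bases, had 8, 3 and 9 reads in 4T1, against 1, 0 and 2 in Eph4-ev. It was higher in 4T1 (log2 fold change 3.52 ± 1.11 SE; edgeR, adjusted p = 0.0495), and was not called in any of the 6 fits without 1 library. This ring passed the filter on low counts only through 4T1. The Zfp407 ring of exons 5 to 7 went the other way. It had 1, 0 and 0 reads in 4T1, against 7, 8 and 7 in Eph4-ev, and was not called (log2 fold change -3.15 ± 1.32 SE; edgeR, adjusted p = 0.133). The Zfp407 host total overlapped between these lines and was not called (log2 fold change 0.79 ± 0.71 SE). In all, 3 member circRNAs were higher and 3 lower in 4T1, of 34 tested (17.6%), against 17.4% of 1869 circRNAs, 5.99% higher and 11.4% lower.

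Zfp536, a protein known for holding back neuronal differentiation, gave the 1 call within a pair that held in every setting run. It had 13, 15 and 11 reads in B16F10, against 0, 0 and 2 in Melan-a, or 731 ± 134 against 26.5 ± 45.9 RPM (mean ± SD of 3 libraries). The log2 fold was 4.54 with a standard error of 0.88 (edgeR adjusted p = 0.00673). The host and its exon 4 ring passed the filter on low counts only through B16F10. Their p-values, in the fits below too, are therefore no independent support. The host was called in each fit without 1 library, where adjusted p was at most 0.0408, and in each of the 6 other settings. The exon 4 ring had 8, 12 and 5 reads in B16F10, against 0, 0 and 2 in Melan-a (log2 fold change 3.93 ± 1.11 SE; edgeR, adjusted p = 0.0346), and was called in only 1 of the 6 fits without 1 library. Of melanocyte circRNAs, 1 member was higher and 2 were lower in B16F10, of 20 tested (15%), against 10.9% of 874, 5.03% higher and 5.84% lower.

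Zbtb7a, also called LRF, which silences fetal globin, had 0, 0 and 1 reads in B16F10, against 9, 8 and 11 in Melan-a, and just missed the threshold (log2 fold change -3.92 ± 1.15 SE; edgeR, adjusted p = 0.0552). The frame from the start codon of its exon 2 ring ran for 1320 bases in a ring of 1256. Zfp644, a partner of the G9a and GLP methyltransferases, had 6, 8 and 5 reads in B16F10, against 1, 0 and 1 in Melan-a (log2 fold change 3.51 ± 1.08 SE; edgeR, adjusted p = 0.0671). These hosts passed the filter on low counts only through the line in which they were high.

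Of the 12 hosts tested in both pairs, 11 had reads in every line, and the log2 fold had the same sign in both pairs for 7 of these. The difference between the folds was tested over the 1341 hosts that have rows in both tables and passed the filter on low counts, with 25 members among them. It was called for 4 members (16%), all with the mammary fold above the other, against 9.69% of all hosts (4.1% above and 5.59% below), and unadjusted p was under 0.05 for 7. With 4 calls this share and its direction give no result about zinc finger hosts as a group. Zfp827 differed by 1.98 on the log2 scale (± 0.42 SE; edgeR, adjusted p = 0.00231): it was lower in B16F10 than in Melan-a and not in 4T1 against Eph4-ev. This call held in each of the 12 fits without 1 library, with adjusted p of at most 0.0168. Zfp516 differed by 0.99 (± 0.31 SE; edgeR, adjusted p = 0.0401), with adjusted p at 0.05 or above in 10 of the 12 fits without 1 library and up to 0.175. Zfp704 was called at an adjusted p of 0.00705 by edgeR and in all 12 of these fits, with all Eph4-ev libraries at 0. Zbtb10, a BTB repressor, had 5, 4 and 1 reads in 4T1, 0, 2 and 0 in Eph4-ev, none in B16F10 and 5, 4 and 3 in Melan-a. Its difference had an edgeR adjusted p of 0.0432 and was lost in 10 of the 12 fits.

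**Figure D5:**
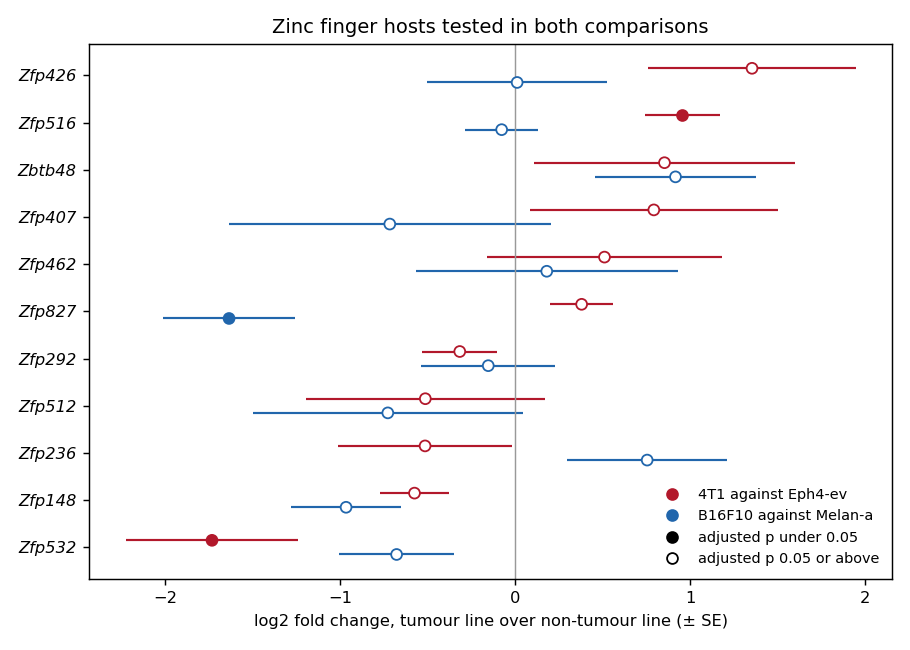
Log2 fold change (x axis, tumour line over non-tumour line, ± SE) of the 11 zinc finger hosts tested in both pairs and with reads in every line (rows); filled points passed an adjusted p of 0.05. Zfp827 lies at 0.38 in the mammary pair and at -1.63 in the melanocyte pair.

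Hosts found in 1 line of a pair alone were those with at least 2 reads in each of its libraries and none in its partner. In 4T1 this was Zfp704 alone, and in Eph4-ev Zbtb20, Zfp64, Zfp367 and Zfp451, 4 hosts, of 53 with reads. Of all 3617 mammary hosts with reads, 0.719% were found in 4T1 alone and 3.51% in Eph4-ev alone. There were 0 such hosts in B16F10 and 3 in Melan-a, Zfp362, Zbtb10 and Zfp64, of 59 with reads. Of all 3414 melanocyte hosts, 0.351% were found in B16F10 alone and 0.557% in Melan-a alone, and no test was made on these counts. Zfp64, a factor that binds the Mll promoter, had 6, 3 and 10 reads in Eph4-ev and 2, 2 and 6 in Melan-a, and none in 4T1 or B16F10. It was at least 3.03-fold lower in 4T1 and at least 2.13-fold lower in B16F10, and was too low to be tested in either pair. Zfp451, a SUMO ligase, had 2, 4 and 2 reads in Eph4-ev, and Zfp367 had 3, 3 and 7. Zfp362 had 6, 3 and 7 reads in Melan-a, from a ring of exons 2 to 6 with 2 fingers. Every Eph4-ev library had more junction reads than every 4T1 library, and the source of this difference was not tested. After scaling to the library with the fewest junction reads, 1 of the 4 Eph4-ev hosts and none of the 3 Melan-a hosts kept 2 reads in each library.

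At the level of circRNAs, Zfp800 exons 4 to 5 was found in 4T1 alone with 4, 2 and 2 reads, beside Zfp704. Zfp236 exons 2 to 5 had 7, 8 and 4 reads in Eph4-ev alone, and Zfp207 exons 9 to 13 had 3, 3 and 4; Zfp207 is a kinetochore protein. In B16F10 alone there were a Zfp644 ring of exons 2 to 5 with 2, 3 and 5 reads, which holds all 7 fingers of the gene in 3600 bases, and a Zfp536 ring whose ends match no exon pair, with 5, 3 and 2 reads. In all, 2 of 118 mammary member circRNAs were found in 4T1 alone and 4 in Eph4-ev alone, against 0.547% and 3.5% of all single-host circRNAs with reads. Of 138 in the melanocyte table, 2 were found in B16F10 alone and 3 in Melan-a alone, against 0.367% and 0.505%, and no test was made.

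A pair of related gene lists were read in the same fits; they were chosen with results of these data known. Of 96 C2H2 genes with other names, 18 mammary hosts were tested, 2 were higher and 5 lower in 4T1. Of all 1515 mammary hosts tested, 6.86% were higher and 10.6% lower. DESeq2 called 6 of the 18. Zfpm2, a cofactor of Gata proteins, was at least 30.3-fold lower (edgeR adjusted p = 4.22e-05). Gli3, an effector of Hedgehog signalling, had 11, 22 and 50 reads in 4T1 and none in Eph4-ev, at least 57.8-fold higher (edgeR adjusted p = 5.99e-05). Vezf1 fell by 3.30 on the log2 scale (± 0.63 SE; edgeR, adjusted p = 0.00239). The call of Vezf1 was lost without the second Eph4-ev library (adjusted p = 0.0635), and Zfpm2 and Gli3 were called in all 6 fits without 1 library. The list's median log2 fold was -0.61, against -0.09 for all hosts. In the melanocyte pair 11 were tested and edgeR called 0, against 7.13% of all 898 hosts. Of the 11, 1 had an unadjusted p under 0.05, and DESeq2 called 0.

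Of 46 genes for corepressors that KRAB and BTB proteins recruit, 14 mammary hosts were tested, 0 were higher and 1 was lower. Of all 1515 mammary hosts tested, 6.86% were higher and 10.6% lower. DESeq2 called 1 of the 14. The host that edgeR called lower was Pphln1, a subunit of the HUSH silencing complex. It had 4, 10 and 22 reads in 4T1, against 49, 54 and 66 in Eph4-ev (log2 fold change -1.33 ± 0.41 SE; edgeR, adjusted p = 0.0375). It was called only in the fit without the second 4T1 library among the 6 fits without 1 library, with adjusted p of up to 0.127. In the melanocyte pair edgeR called 0 of 11, against 7.13% of all 898 hosts. Of the 11, 0 had an unadjusted p under 0.05, and DESeq2 called 0.

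Markers of the labelled cell types were checked in circRNA reads, where a gene that forms no ring shows nothing. Of 13 melanocyte genes, 9 had reads in B16F10 and 10 in Melan-a, and they made up 1.10% to 1.28% and 0.568% to 0.966% of junction reads. These ranges did not overlap, and DESeq2 called 1 of 4 melanocyte marker hosts in that pair. In 4T1 0 of 13 had reads, and in Eph4-ev Mitf had 5 reads in 1 library. Of 17 epithelial genes, 7 had reads in 4T1 and in Eph4-ev, among them Cdh1 and Epcam, and 1 or 2 in the melanocyte lines. Their reads were 33, 78 and 114 in 4T1, against 258, 291 and 309 in Eph4-ev, or 0.212% to 0.440% against 0.509% to 0.556% of junction reads, and these ranges did not overlap. Of 6 epithelial hosts in the mammary fit, Inadl fell by 2.47 on the log2 scale (edgeR adjusted p = 0.00239) and Myo5b fell by 2.38 (edgeR adjusted p = 0.00271). DESeq2 called 2 of 6 epithelial hosts, and edgeR called 10.6% of all 1515 mammary hosts lower. Folds of the other epithelial hosts are not given here. The part of these marker differences in the zinc finger results was not tested. None of 8 fibroblast or 9 immune genes had reads.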

How the data were processed

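Each deposited table gives, per the file headers, back-splice junction read counts and RPM for 6 libraries; the RPM values are the deposited counts scaled by the authors to each library's junction total. CircRNAs were found on mm10 with CIRI2 and CIRCexplorer2, per the labels' protocols, and the submitters' processing notes name BWA, TopHat, DESeq, DESeq2 and edgeR. Their versions were not stated. RPM steps gave whole reads for 100% of values (tolerance 0.01 reads), equal to the counts.

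Counts were summed per host. Tests used edgeR 4.0.16 in R 4.3.3 (quasi-likelihood F test, TMM factors, minimum count of 5 and total of 10, Benjamini-Hochberg over all rows tested), with DESeq2 1.42.0 as an alternative. The tests within a pair were run on simulated counts first, the interaction was not. The interaction used all 12 libraries. Exons, coding sequence and junction letters came from GENCODE M21 transcripts. Counts of near-identical KRAB genes are uncertain.

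The text names the 8 most abundant hosts per table, called hosts and circRNAs, those in 1 line alone (up to 5 per line), the leading ring of a host, and up to 4 called genes per list. Members and lists were chosen with earlier results of these data known. Libraries of a line differed beyond sampling noise (chi-square per degree of freedom 1.74 to 5.20). Zfp609 and rows with several hosts were left out.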

Additional observations from a re-analysis of the deposited data

Results flagged for a closer look

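The results of 4 hosts are given here because the fold of the tumour line differed between the 2 lineages by edgeR's interaction test; no explanation was tested. Zfp827 differed by 1.98 on the log2 scale (SE 0.42, edgeR adjusted p = 0.00231), with the mammary fold above the melanocyte one. The fitted difference was 6.70 for Zfp704 (SE 1.60, edgeR adjusted p = 0.00705), which had no reads in Eph4-ev. For Zfp516 it was 0.99 (SE 0.31, edgeR adjusted p = 0.0401). For Zbtb10, with no reads in B16F10, it was 8.62 (SE 2.69, edgeR adjusted p = 0.0432). The values of Zfp704 and Zbtb10 depend on the prior count of the fit, since 1 line had none of their reads, and give no size of the difference.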

How the results depend on the processing

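Of 19 calls over the 5 fits, 3 were made in every setting that tested them: Zfp536 in the melanocyte hosts, and Zfp827 and Zfp704 in the interaction. No call, of 19, changed direction in a setting that tested it. The cause of the changes below was not tested. Leaving out 1 library at a time gave 0 to 3 mammary hosts higher and 0 to 2 lower, 0 to 1 mammary circRNAs higher and 0 to 2 lower. It gave 0 to 1 melanocyte hosts lower, 0 to 1 melanocyte circRNAs higher and 0 to 2 lower, and 2 to 3 hosts in the interaction. Without the second Eph4-ev library, 11 of 14 tested calls were lost, the most for any library.

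With a minimum count of 10, 1 mammary host was higher, 0 melanocyte circRNAs were higher, 1 was lower and 2 hosts were called in the interaction. Without a filter, 1 mammary circRNA was higher, 2 melanocyte hosts were higher and 1 melanocyte circRNA was lower. Scaling by total reads alone gave 1 mammary and 1 melanocyte circRNA lower, and DESeq2 gave 1 melanocyte circRNA lower. Deviations of each library from its line mean, over the tested hosts, were correlated between the lines of a pair. Same-numbered libraries gave -0.081 to 0.020, and 1 of 6 tumour-line libraries correlated best with its own number. With 3 libraries per line this showed no pairing by replicate number but cannot exclude it. With the replicate number as a block, 13 of 19 calls were kept, with 0 melanocyte circRNAs higher, 1 lower, and 2 hosts in the interaction.

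Without its most abundant host, the member share was 1.73% in 4T1, 1.42% in Eph4-ev, 1.37% in B16F10 and 1.72% in Melan-a. That host was Zfp827 in the mammary and Zfp516 in the melanocyte libraries. With at least 2 reads, 40.3, 61.7, 44.3 and 52.0 member circRNAs were found, in the same order, and at equal depth 52.0 in Eph4-ev. Requiring 5 reads left 0 hosts in 4T1 alone, 1 in Eph4-ev alone and 0 in Melan-a alone, and requiring 1 read gave 2 in B16F10 alone. Scaled to the shallowest library, 1 remained for Eph4-ev and 0 for Melan-a. Depth limits the scarce members, which rest on few reads.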

Other observations

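Rows with several host genes lie outside the rule, but some name a zinc finger gene, 5 in the mammary and 6 in the melanocyte table. A ring at chr19:12770177-12779099 listed under Zfp91 and Gm44505 had 7, 6 and 9 reads in Eph4-ev and none in 4T1. It had 1, 1 and 0 reads in B16F10 and in Melan-a. A ring at chr5:106619540-106638635 listed under Zfp644 and an unnamed gene had 11, 0 and 3 reads in 4T1 and none in Eph4-ev. A ring at chr16:55980595-55982406 listed under Zbtb11 and an unnamed gene had 4, 0 and 0 reads in B16F10, against 2, 5 and 2 in Melan-a. These were chosen after their values were seen, and no test was made on them.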
